A study of Homo sapiens with 6 samples.

Results

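The SMAD family and 2 feedback inhibitors of TGF-beta signalling, PMEPA1 and SKIL, were followed as 10 genes chosen by name, out of 40396 genes in the deposited table. The 8 SMAD genes were SMAD1, SMAD2, SMAD3, SMAD4, SMAD5, SMAD6, SMAD7 and SMAD9, and each of the 10 genes was found in the table. The libraries were made from H1 cells, a single human embryonic stem cell line, after 3 days of differentiation towards definitive endoderm (DE), the germ layer that gives rise to liver, pancreas and gut. All cells were grown on Matrigel in B27/DMEM with 50 ng/mL activin A throughout and 2.5 µM CHIR99021, a GSK3 inhibitor that activates WNT signalling, during the initial 24 h. The control group received no saracatinib (n = 3), and the SAR group received 0.5 µM saracatinib (SAR), a Src family kinase inhibitor, on all 3 days (n = 3). At this dose, the paper reports no effective inhibition of Src phosphorylation, but less phosphorylation of focal adhesion kinase, in western blots. The paper names a DMSO vehicle for other assays, such as western blots, but not for the sequenced cells. Polyadenylated RNA was sequenced, and the comparison asks how this low dose of SAR altered gene expression during DE differentiation.

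SMAD proteins carry signals of the TGF-beta superfamily from the cell surface to the nucleus. Activin, nodal and TGF-beta receptors phosphorylate SMAD2 and SMAD3, whereas BMP receptors phosphorylate SMAD1, SMAD5 and SMAD9. Both sets of receptor-activated SMADs join the common partner SMAD4 and bind DNA with other transcription factors. SMAD6 and SMAD7 are inhibitory SMADs, and PMEPA1 and SKIL restrain the pathway at the membrane or endosome and in the nucleus, respectively. Several of these inhibitors are themselves induced by the pathway, and a strong activin/nodal signal is what directs pluripotent cells to DE.

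Values are FPKM, read fragments scaled to exon length and to library size, so that levels of different genes can be set side by side. Total reads per library, recovered from the steps of the FPKM values, were 18877964 to 24419937 in the control group and 16681280 to 18389543 in the SAR group. The 10 genes were covered by 111 reads (SMAD9, SAR replicate 2) to 6583 reads (SMAD2, control replicate 2) per library. Control replicate 1 listed 33169 genes above 0 FPKM and stood apart from the other 5 libraries, which listed 29506 to 30109. Without that library, each of the 10 genes remained on the same side of the threshold. Separate cultures are not stated for the replicates, so the p-values measure only the spread between these libraries, which may be technical.

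The DE identity was checked on 12 marker genes, which were all expressed in both groups. With SAR, 5 of these rose and 6 fell. FOXA2, a forkhead factor of endoderm, went from 23.6 ± 1.38 to 64.0 ± 3.66 FPKM and SOX17 from 31.6 ± 1.84 to 67.5 ± 18.3 FPKM (SD, n = 3 in each group), whereas CXCR4 went from 118 ± 3.78 to 83.2 ± 10.8 FPKM. The summed level of the 12 DE genes, most of it from CER1, was 3969 to 5073 FPKM in the control group and 2092 to 2150 FPKM in the SAR group. The summed level of 10 pluripotency genes was 997 to 1105 FPKM against 1219 to 1233 FPKM, with 4 genes higher and 1 lower. The 13 mesoderm genes summed to 19.6 to 20.7 FPKM against 25.8 to 29.6 FPKM, and 8 of them, MESP1 and HAND1 included, were under 0.5 FPKM in every library. Of the 4 mesoderm genes tested, 2 rose and 1 fell, and TBXT (brachyury) went from 3.51 ± 0.245 to 11.7 ± 2.15 FPKM (log2 fold change 1.69, adjusted p = 0.000574) and TBX6 rose by 0.82 (adjusted p = 0.00207). Neural ectoderm (10 genes, 132.7 to 143 against 127 to 141 FPKM) and fibroblast genes (9 genes, 90.6 to 114 against 81.4 to 93.7 FPKM) overlapped between the groups in their sums. Most of the neural sum came from ZIC2 (73.0 against 55.7 FPKM) and NES (63.4 against 74.0 FPKM, not past the test), which differed in opposite directions. Of 5 neural genes tested, however, 3 rose on the log2 scale, SIX3 by 1.51 (adjusted p = 0.00631), OTX1 by 1.00 (adjusted p = 0.0187) and HESX1 by 0.91 (adjusted p = 0.0110). SIX3 (0.343 FPKM in the control group and 1.14 with SAR) and OTX1 (0.374 and 0.857) were near the floor. They reached the mean of 0.5 FPKM needed for testing only through the SAR group, so they could be counted only as rises. ZIC2 fell by 0.39 (adjusted p = 0.00342), and of 4 fibroblast genes tested 1 fell. In both lists 5 genes were under 0.5 FPKM in every library, among them PAX6, SOX1, COL3A1 and DCN. The 10 trophoblast and amnion genes summed to at most 3.71 FPKM, with 9 of them under 0.5 FPKM in every library and the 1 tested, GATA3, higher by 1.08 (adjusted p = 0.00958). The part of these shifts in the SMAD results was not tested, and in bulk RNA fewer cells of a type and less RNA per cell cannot be told apart.

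Promoter sequence is shown first, since SMADs bind the letters searched here and several of the inhibitors are known targets of the pathway. Motifs were searched on both strands in 300-base promoters from RefSeq (250 bases before to 50 after each start, GRCh38.p14), for the palindrome GTCTAGAC, the short element CAGAC, which is not contained in the palindrome, and the GC-rich site GGCGCC, none of which overlapped another in the sequences printed. Among 35116 promoters, GTCTAGAC was in 0.202%, CAGAC in 45.3% and GGCGCC in 19.2%. Within these 300-base promoters, SMAD6 was the only 1 of the 10 genes with GTCTAGAC, which began 12 bases before its RefSeq start (chr15:66702236). Sequence outside them was not searched. The GENCODE start of SMAD6 (chr15:66702228) lies within the palindrome, so its last bases are inside the first GENCODE exon. The sequences run 5′ to 3′ on the strand of the gene with exon bases of the gene left out (other than the end of the palindrome in SMAD6), and capitals mark the motifs (GTCTG is CAGAC on the other strand).
SMAD6, chr15:66701986-66702231, plus strand: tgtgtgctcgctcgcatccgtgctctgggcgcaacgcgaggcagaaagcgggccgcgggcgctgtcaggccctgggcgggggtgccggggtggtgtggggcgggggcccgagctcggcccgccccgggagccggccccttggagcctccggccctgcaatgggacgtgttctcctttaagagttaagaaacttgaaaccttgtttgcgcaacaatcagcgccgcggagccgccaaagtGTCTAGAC
PMEPA1, chr20:57711537-57711722, minus strand: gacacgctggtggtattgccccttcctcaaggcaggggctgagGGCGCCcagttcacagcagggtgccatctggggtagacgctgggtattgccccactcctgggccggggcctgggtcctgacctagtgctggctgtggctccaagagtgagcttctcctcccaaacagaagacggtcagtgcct
SKIL, chr3:170357465-170357677, plus strand: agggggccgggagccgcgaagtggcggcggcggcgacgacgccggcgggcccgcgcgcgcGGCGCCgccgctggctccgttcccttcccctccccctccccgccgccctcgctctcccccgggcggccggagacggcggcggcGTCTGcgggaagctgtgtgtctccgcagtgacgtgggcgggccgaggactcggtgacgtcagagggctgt
SMAD1, chr4:145481056-145481193, plus strand: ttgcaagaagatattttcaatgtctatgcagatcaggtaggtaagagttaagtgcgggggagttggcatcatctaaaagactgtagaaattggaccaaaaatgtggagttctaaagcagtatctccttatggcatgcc
Over the 300 bases of the outermost promoter of each gene, GGCGCC was found 1 time in PMEPA1, SKIL, SMAD2, SMAD4 and SMAD5 and 2 times in SMAD3, and CAGAC 1 time in SKIL, SMAD3 and SMAD9 and 2 times in SMAD7. SMAD1 held no motif there, but of its 5 RefSeq promoters the fourth held 2 GGCGCC and 1 CAGAC and the fifth 2 GGCGCC. Inner promoters of other genes held motifs too. CAGAC was found 1, 2 and 1 times in promoters 2, 3 and 4 of PMEPA1. It was found 1 and 4 times in promoters 4 and 5 of SMAD3 and 1 time in promoter 2 of SMAD7. Promoter 2 of SMAD2 held 1 GGCGCC. The short motifs were thus present both in genes that passed the test below and in genes that did not. A match of letters is a description of the sequence and not a binding site. For SMAD2 and SMAD7 no bases outside the exons of the gene remained to be printed. The bases before their GENCODE starts were therefore not searched for any motif.

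With SAR, the inhibitory arm was lower and the receptor-activated SMADs moved in different directions. SMAD6, SMAD7, PMEPA1, SKIL and SMAD2 fell, SMAD1 rose, and SMAD3, SMAD4, SMAD5 and SMAD9 did not pass the test. The test was limma on log2(FPKM + 0.1), a scale that understates changes of low genes, over the 16371 genes that averaged 0.5 FPKM or more, all 10 genes among them, and calls were made at a Benjamini-Hochberg adjusted p under 0.05. Thus 5 of the 10 genes were lower, against 9.55% of all tested genes, and 1 was higher, against 23.7% (33.3% of all tested genes passed in either direction). The 10 genes were chosen with earlier results of these data known, so these shares are a description and no test of the family. SMAD6 and PMEPA1 also passed a 2-fold change downwards (1.58% of all tested genes), and none of the 10 passed it upwards (3.41%), either in limma, at an unadjusted p under 0.05, or in voom on the recovered reads. The groups did not overlap for 5 genes that were lower (15.2% of all tested genes) and for 2 that were higher, SMAD1 and SMAD4 (35.5%). The median log2 fold change of the 10 genes was -0.14 and that of all tested genes was 0.12. A median-ratio rescaling of the libraries brought the latter to 0.00 and the former to -0.26, and turned the split over all genes from 3885 higher and 1563 lower to 2259 higher and 2538 lower, with the counts among the 10 genes still 1 higher and 5 lower.

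**Figure D1:**
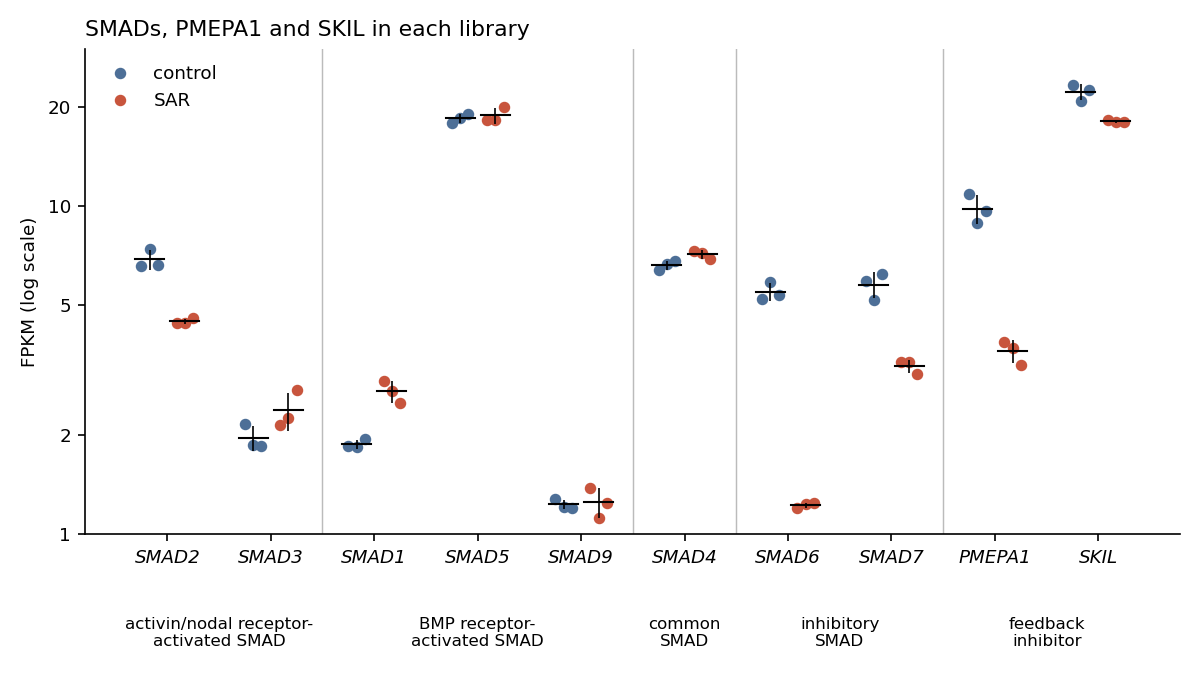
FPKM of the 10 genes (log scale) in each of the 3 control and 3 SAR libraries, 1 point per library, with horizontal bars at the group mean and vertical bars for ± 1 SD. The SAR libraries of SMAD6 sit between 1.21 and 1.25 FPKM, below all control libraries (5.19 to 5.86), and those of SMAD5 and SMAD9 overlap the control libraries.

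SMAD6, an inhibitory SMAD that acts mainly against BMP signalling (ENSG00000137834, chr15:66702228-66782848, plus strand), had the largest change of the 10 genes. Its level was 5.19, 5.86 and 5.36 FPKM in control replicates 1 to 3 and 1.21, 1.23 and 1.25 FPKM in the SAR replicates. All SAR libraries lay far below all control libraries, and they differed little among themselves. The means were 5.47 ± 0.351 and 1.23 ± 0.0210 FPKM (SD, n = 3), a level 4.45-fold lower with SAR, and the log2 fold change was -2.07 (SE 0.0794, 95% interval -2.25 to -1.88, adjusted p = 7.96e-05). The gene was read by 866 to 1225 reads in the control and by 172 to 196 reads in the SAR libraries. Among the 300-base promoters searched for the 10 genes, only its own held the GTCTAGAC palindrome. A link between that sequence and the change was not tested.

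SMAD7, the inhibitory SMAD that blocks activin, TGF-beta and BMP receptors (ENSG00000101665, chr18:48919853-48952052, minus strand), was at 5.91, 5.18 and 6.18 FPKM in the control libraries and at 3.34, 3.33 and 3.07 FPKM in the SAR libraries. The groups did not overlap. Its mean went from 5.76 ± 0.516 to 3.25 ± 0.153 FPKM, and it fell by 0.80 on the log2 scale (SE 0.0860, 95% interval -1.01 to -0.60, adjusted p = 0.00147). SMAD6 and SMAD7 thus stood at overlapping levels in the control group but not with SAR, where SMAD7 was the higher of the pair in every library. The ratio of SMAD7 to SMAD6 within a library was 0.883 to 1.15 in the control group and 2.47 to 2.77 in the SAR group.

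PMEPA1, a membrane protein that binds SMAD2 and SMAD3 and keeps them from the receptor (ENSG00000124225, chr20:57648392-57711536, minus strand), was at 10.84, 8.88 and 9.60 FPKM in the control libraries and at 3.85, 3.69 and 3.28 FPKM with SAR. The lowest control library was above every SAR library. The mean of 9.77 ± 0.991 FPKM went to 3.61 ± 0.291 FPKM, 2.71-fold lower, with a log2 fold change of -1.41 (SE 0.0967, 95% interval -1.64 to -1.18, adjusted p = 0.000382). Of its exon bases, 6.10% lie opposite the antisense gene NKILA, whose reads cannot be told apart if strand was not used in counting, and the strand setting is not given in the sources used here.

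SKIL, also called SnoN, is a nuclear corepressor that binds SMAD complexes on DNA (ENSG00000136603, chr3:170357678-170396835, plus strand). It was at 23.35, 20.78 and 22.51 FPKM in the control libraries and at 18.27, 17.93 and 17.92 FPKM in the SAR libraries, with no overlap. The change was the smallest of the 5 genes that fell, from 22.2 ± 1.31 to 18.0 ± 0.202 FPKM (log2 fold change -0.30, SE 0.0588, 95% interval -0.44 to -0.16, adjusted p = 0.0107). Without control replicate 3 the call was lost (-0.29, adjusted p = 0.0508). The ratio of PMEPA1 to SKIL within a library went from 0.439 ± 0.0215 to 0.200 ± 0.0146.

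The receptor-activated SMADs of the activin/nodal arm diverged. SMAD2 (ENSG00000175387, chr18:47808957-47931146, minus strand) was at 6.56, 7.40 and 6.62 FPKM in the control libraries and at 4.39, 4.40 and 4.55 FPKM with SAR, and the groups were well apart. Its mean went from 6.86 ± 0.468 to 4.44 ± 0.0909 FPKM, and it fell by 0.61 on the log2 scale (SE 0.0695, 95% interval -0.78 to -0.45, adjusted p = 0.00172). SMAD3, its close relative that binds DNA directly (ENSG00000166949, chr15:67063763-67195195, plus strand), was at 2.16, 1.87 and 1.86 FPKM in the control libraries and at 2.15, 2.26 and 2.74 FPKM with SAR. The lowest SAR library lay within the control range. The SMAD3 difference of 0.26 did not pass the test (SE 0.120, 95% interval -0.02 to 0.55, adjusted p = 0.130). SMAD3 stood at 0.287 ± 0.0392 of the SMAD2 level in the control group and at 0.535 ± 0.0592 with SAR, without overlap. The FPKM of SMAD2 rests on an exon length of 36426 bases, the longest of the 10 genes, so its place in the order of levels depends on that gene model, whereas its change between groups does not.

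In the BMP arm, SMAD1 (ENSG00000170365, chr4:145481194-145558079, plus strand) was at 1.85, 1.84 and 1.95 FPKM in the control libraries and at 2.92, 2.74 and 2.51 FPKM with SAR. Every SAR library was above every control library. It went from 1.88 ± 0.0589 to 2.72 ± 0.209 FPKM and rose by 0.51 on the log2 scale (SE 0.0888, 95% interval 0.30 to 0.72, adjusted p = 0.00694). Of its exon bases, 6.21% lie opposite the antisense gene SMAD1-AS1. Such overlaps are also found in SMAD5 (6.75%, SMAD5-AS1) and SMAD3 (2.00%, AC087482.1). SMAD5, the receptor-activated SMAD with the highest FPKM (ENSG00000113658, chr5:136132845-136188747, plus strand), was at 17.85, 18.43 and 19.02 FPKM in the control libraries and at 18.18, 18.23 and 20.01 FPKM with SAR. The groups overlapped, with a log2 difference of 0.03 (95% interval -0.11 to 0.17, adjusted p = 0.742). Its rank above SMAD2 rests on the gene models, since in the control libraries SMAD2 had 4553 to 6583 reads and SMAD5 3246 to 4068. SMAD9, also called SMAD8 (ENSG00000120693, chr13:36844831-36920765, minus strand), was the lowest of the 10 genes in the control group at 1.28, 1.21 and 1.21 FPKM and was at 1.39, 1.12 and 1.25 FPKM with SAR. It too overlapped, with a log2 difference of 0.02 and a wider interval of -0.28 to 0.31 (adjusted p = 0.934) on 111 to 173 reads per library. The small differences of SMAD5 and SMAD9 turned negative under the median-ratio rescaling and the quantile normalization.

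SMAD4, the partner that both arms share (ENSG00000141646, chr18:51028394-51085045, plus strand), was at 6.37, 6.64 and 6.78 FPKM in the control libraries and at 7.27, 7.16 and 6.88 FPKM with SAR. The SAR libraries were all above the control libraries, the nearest of them by a small margin. The log2 difference of 0.11 did not pass the test (SE 0.0581, 95% interval -0.03 to 0.24, adjusted p = 0.196), was smaller than the median of all tested genes, and was -0.01 under the median-ratio rescaling. AC091551.1, a gene on the same strand, shares 7.37% of the exon bases of SMAD4.

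**Figure D2:**
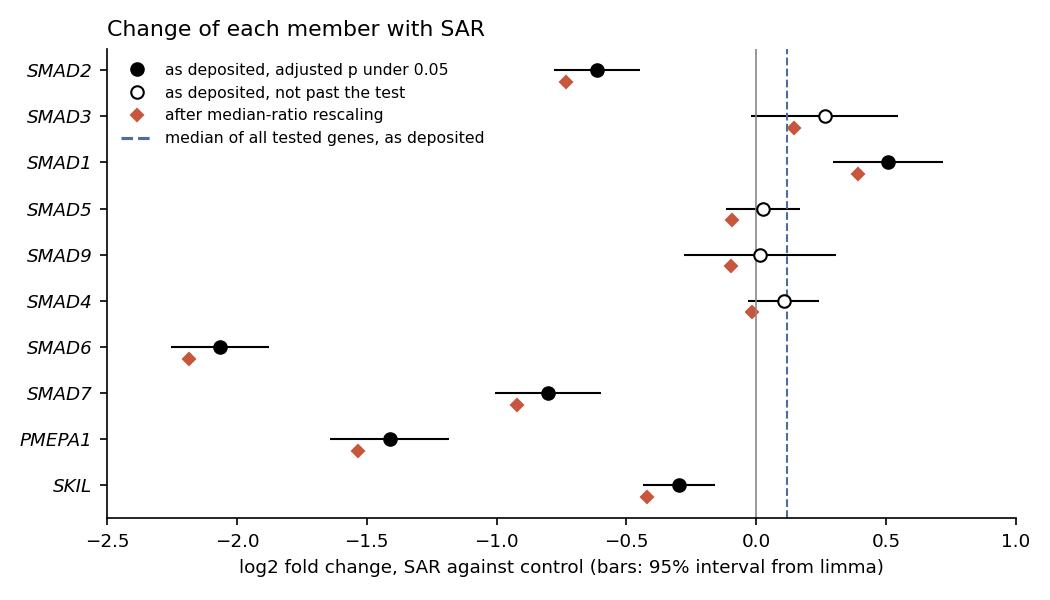
Log2 fold change of each of the 10 genes, SAR against control, on the log2(FPKM + 0.1) scale, with 95% intervals from limma and the median of all tested genes (0.12) as a dashed line, where filled circles passed the test and diamonds give the value after the median-ratio rescaling. SMAD6 and PMEPA1 lie beyond -1, and the intervals of SMAD3, SMAD4, SMAD5 and SMAD9 include 0, with the last 3 of these below 0 after the rescaling.

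The order of the levels changed with these shifts. In the control group, SKIL was highest, followed by SMAD5, PMEPA1, SMAD2, SMAD4, SMAD7, SMAD6, SMAD3, SMAD1 and SMAD9. Neighbours in that order were apart over the 3 libraries, other than SMAD2 and SMAD4, SMAD7 and SMAD6, and SMAD3 and SMAD1, which overlapped. In the SAR group the order was SMAD5, SKIL, SMAD4, SMAD2, PMEPA1, SMAD7, SMAD1, SMAD3, SMAD9 and SMAD6. The neighbours that overlapped there were SMAD5 and SKIL, PMEPA1 and SMAD7, SMAD1 and SMAD3, and SMAD9 and SMAD6. PMEPA1 thus went from rank 3 to rank 5 and SMAD6 from rank 7 to rank 10.

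The summed level of the 8 SMAD genes was 47.2 to 49.0 FPKM in the control libraries and 40.5 to 42.3 FPKM in the SAR libraries. As a share of that sum, SMAD5 took 38.2% ± 0.533 in the control group and 45.6% ± 1.52 with SAR (SD, n = 3), SMAD4 13.7% ± 0.167 and 17.3% ± 0.847, and SMAD1 3.90% ± 0.0913 and 6.62% ± 0.626. Those shares were larger with SAR, and the shares of the inhibitory SMADs and SMAD2 were smaller. SMAD6 took 11.3% ± 0.656 and then 2.98% ± 0.0583, SMAD7 11.9% ± 1.08 and 7.90% ± 0.543, and SMAD2 14.2% ± 0.925 and 10.8% ± 0.0617. SMAD3 (4.08% and 5.78%) and SMAD9 (2.56% and 3.04%) kept small shares. These shares are not independent of each other, since a smaller share of 1 gene raises the others. They also depend on the exon length used for each gene, 36426 bases for SMAD2, so a share of FPKM is not a share of reads.

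**Figure D3:**
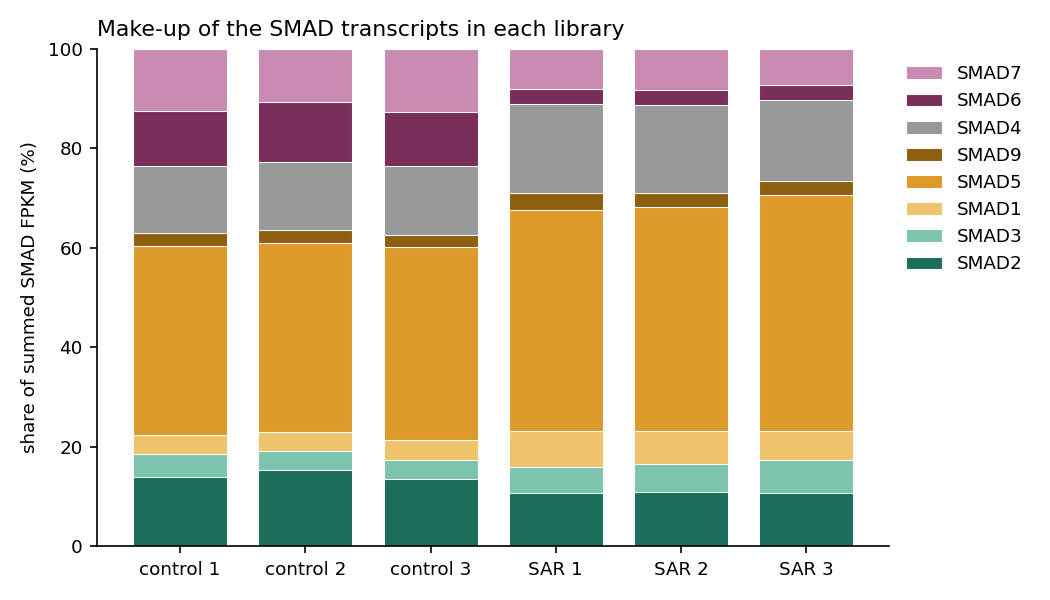
Make-up of the summed FPKM of the 8 SMAD genes in each library (percent, stacked). The share of SMAD6 is 10.9% to 12.1% in the control libraries and 2.95% to 3.05% in the SAR libraries, and that of SMAD5 is 37.8% to 38.8% and 44.5% to 47.4%.

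Ratios within a library do not depend on how the library was scaled. The summed inhibitory SMADs stood at 0.370 ± 0.00927 of the summed receptor-activated SMADs in the control group and at 0.152 ± 0.0109 with SAR, a log2 difference of -1.29. The BMP-type receptor-activated SMADs were 2.45 ± 0.153 times the activin/nodal type in the control group and 3.34 ± 0.0911 times with SAR, a log2 difference of 0.45. All ratios that include SMAD2 depend on the exon length used for it, 36426 bases against 9040 for SMAD5. Where SMAD2 is summed with other genes, the log2 difference depends on that length as well. SMAD4 against all receptor-activated SMADs was 0.217 ± 0.00347 and 0.240 ± 0.0163, and here the lowest SAR library (0.2216) was barely above the highest control library (0.2211). None of the 6 ratios overlapped between the groups. No test was made on them, since an exact two-sided permutation test of 3 against 3 libraries cannot give a p under 0.1.

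**Figure D4:**
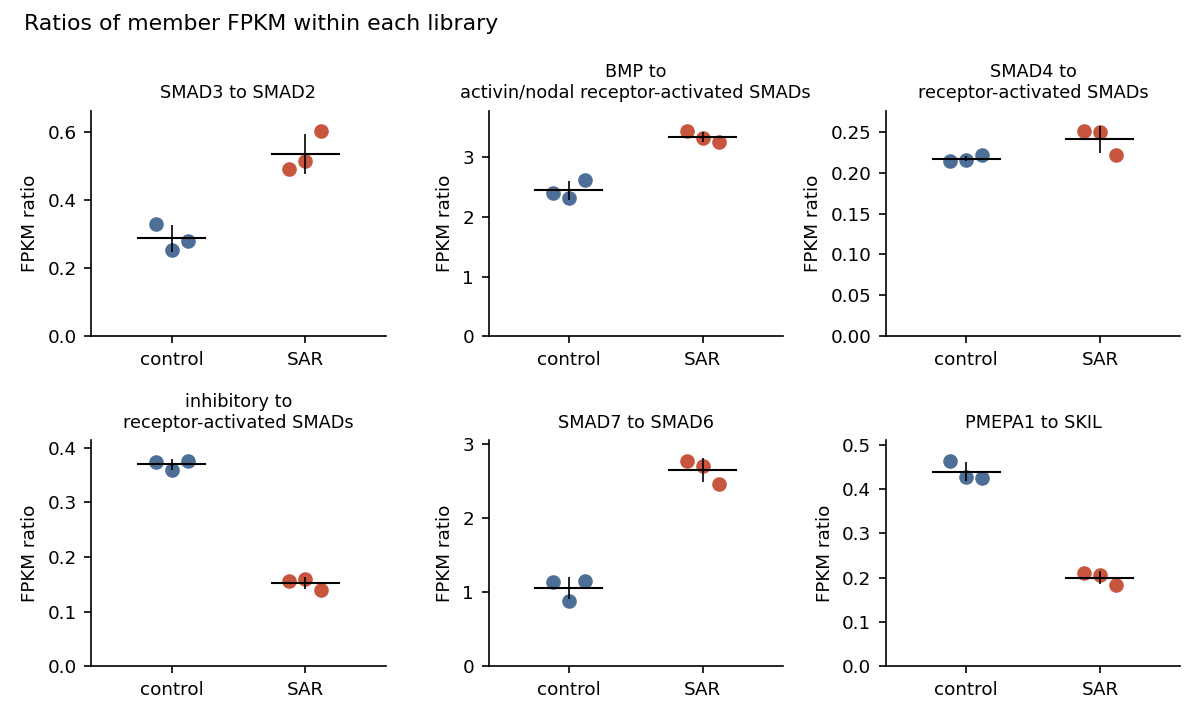
FPKM ratios between classes of the 10 genes in each library (linear axes from 0), 3 control and 3 SAR libraries per ratio, with horizontal bars at the mean and vertical bars for ± 1 SD. The groups are apart in all 6 ratios, widest for SMAD7 to SMAD6 (log2 difference 1.33) and for inhibitory to receptor-activated SMADs (-1.29) and narrowest for SMAD4 to receptor-activated SMADs (0.14).

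Beyond the 10 genes, lists of SMAD regulators, partners and targets held 147 genes, of which 123 were tested. In these, 35 were higher, 28 lower and 60 not past the test, with a median log2 fold change of 0.04. The median-ratio rescaling gave 20 higher and 37 lower, and leaving out control replicate 3 gave 18 higher and 17 lower. Some genes, GSC, EOMES and LEFTY1 among them, stand in more than 1 list and were counted once here. Counts in each list are read against 23.7% higher and 9.55% lower over all tested genes. Counts under the median-ratio rescaling are read instead against 2259 higher and 2538 lower of 16371 genes. The lists were chosen with earlier results of these data known, so the counts are a description only.

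The target genes of the activin/nodal and TGF-beta SMADs were mostly lower. Of 21 tested, 13 fell, 2 rose and 6 did not pass the test, with a median of -0.68, and 15 fell and 1 rose under the median-ratio rescaling. LEFTY1, a secreted nodal antagonist, was at 317, 278 and 304 FPKM in the control libraries and at 68.0, 70.6 and 80.3 FPKM with SAR (log2 fold change -2.04, adjusted p = 7.96e-05). GSC, the organizer homeobox gene, fell from 70.5 ± 1.55 to 25.4 ± 3.79 FPKM (-1.48, adjusted p = 0.000382). FOXA2 went against these, with a log2 fold change of 1.44 (adjusted p = 0.000107).

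Target genes of the BMP SMADs were counted without SMAD6 and SMAD7. Of 6 tested, 4 rose, 1 fell and 1 did not pass the test, with a median of 0.59, and the split was the same after the median-ratio rescaling. The 4 that rose were the ID genes, inhibitors of helix-loop-helix transcription factors. ID3 was at 22.2, 21.1 and 22.8 FPKM in the control libraries and at 51.7, 47.9 and 45.8 FPKM with SAR (log2 fold change 1.13, adjusted p = 0.000178). ID4 rose by 1.11 (adjusted p = 0.000238), ID1 by 0.74 (adjusted p = 0.00876) and ID2 by 0.45 (adjusted p = 0.0185). MSX2, a homeobox target of BMP signals, fell from 0.788 ± 0.104 to 0.269 ± 0.0262 FPKM (-1.26, adjusted p = 0.0101). This low level dropped below the filter when any single control library was left out. SMAD6, itself a BMP target, therefore lay on the other side of 0 from the ID genes.

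Among BMP ligands and receptors, 2 of 7 tested rose and 1 fell (median 0.19), and 2 rose and 2 fell under the median-ratio rescaling (median 0.07). Quantile normalization gave a median of -0.011. BMP7 went from 2.26 ± 0.114 to 7.23 ± 0.597 FPKM (log2 fold change 1.63, adjusted p = 0.000137), and BMP2 from 43.2 ± 3.09 to 63.7 ± 4.67 FPKM (0.56, adjusted p = 0.00327). BMPR2, the type II BMP receptor, fell from 11.3 ± 0.646 to 5.27 ± 0.0542 FPKM (-1.09, adjusted p = 0.000208). BMP4 was at 5.19 ± 0.515 and 5.94 ± 0.537 FPKM and did not pass the test (adjusted p = 0.173).

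Among ligands, co-receptors and receptors of the activin/nodal and TGF-beta arm, 3 of 10 tested rose and 4 fell (median -0.13), and 1 rose and 5 fell under the median-ratio rescaling. TGFB1 fell by 0.51 (adjusted p = 0.00122), from 19.4 ± 0.253 to 13.6 ± 0.474 FPKM. The TGF-beta family ligand GDF3 fell by 1.29 (adjusted p = 0.00554) and NODAL by 0.53 (adjusted p = 0.0174), the latter from 28.4 ± 0.625 to 19.9 ± 3.57 FPKM. CFC1, a nodal co-receptor, rose by 2.97 (adjusted p = 0.00896), although its SAR libraries ranged from 1.02 to 5.04 FPKM and its near-identical copy CFC1B makes its reads uncertain. With a control mean of 0.225 FPKM, under the 0.5 FPKM filter, CFC1 was tested only through its SAR level.

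Feedback and membrane inhibitors other than the 10 genes did not move one way, with 5 of 12 tested higher and 3 lower (median 0.26), and 2 higher and 4 lower under the median-ratio rescaling. Besides LEFTY1, CER1, a secreted antagonist of nodal and BMP, fell from 4104 ± 534 to 1683 ± 35.4 FPKM (log2 fold change -1.28, adjusted p = 0.000683). BMPER fell by 1.11 (adjusted p = 0.00435). CHRD, chordin, a secreted BMP antagonist, rose from 0.274 ± 0.122 to 2.10 ± 0.228 FPKM (2.60, adjusted p = 0.00114). Its control mean was under the 0.5 FPKM filter, so it was tested only through its SAR level. LEFTY2, at 553 ± 11.2 and 517 ± 18.4 FPKM, and BAMBI, a pseudoreceptor at 24.5 ± 0.600 and 24.0 ± 1.49 FPKM, did not pass the test (adjusted p = 0.220 and 0.752), and both were named after their values were seen.

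SMAD corepressors, the class to which SKIL belongs, had 6 of 12 tested higher and none lower, with a median of 0.17, in limma, and none lower at an unadjusted p under 0.05 or in voom. The median-ratio rescaling left 4 higher and none lower, with 1 lower at an unadjusted p under 0.05. TGIF1 rose from 29.6 ± 0.500 to 44.4 ± 1.91 FPKM (0.58, adjusted p = 0.000859), and TGIF2 by 0.35 (adjusted p = 0.00494), both homeodomain corepressors of SMAD2 and SMAD3. CTBP1 rose by 0.41 (adjusted p = 0.00448) and DACH1 by 0.85 (adjusted p = 0.00491). SKI, the relative of SKIL, was at 8.99 ± 1.32 and 9.00 ± 0.266 FPKM (adjusted p = 0.941) and was named after its values were seen.

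SMAD partners on DNA and coactivators had 4 of 26 tested higher and 6 lower (median 0.02), or 3 and 8 under the median-ratio rescaling. EOMES, a T-box factor of the mesendoderm, fell from 83.1 ± 11.1 to 32.1 ± 2.82 FPKM (-1.36, adjusted p = 0.000674), MIXL1 from 44.7 ± 1.20 to 17.8 ± 4.30 FPKM (-1.35, adjusted p = 0.00219) and NANOG, a pluripotency factor, from 14.7 ± 1.71 to 5.89 ± 0.604 FPKM (-1.30, adjusted p = 0.000672). GSC, given above, completes the 4 genes with the smallest adjusted p of that list.

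Enzymes that modify SMADs, the ubiquitin ligases, deubiquitinases and phosphatases, had 9 of 24 tested higher and 3 lower (median 0.12), but 2 higher and 5 lower under the median-ratio rescaling. The SMAD phosphatase CTDSP1 rose by 0.51 (adjusted p = 0.00274), the ubiquitin ligase SMURF1 by 0.35 (adjusted p = 0.0127) and USP9X, a deubiquitinase of SMAD4, by 0.44 (adjusted p = 0.0174). The ligase ITCH fell by 0.33 (adjusted p = 0.0246). Anchors, adaptors and traffic proteins had 1 of 15 tested higher and 4 lower (median -0.08), or 1 and 5 after the rescaling. IPO7, an importin, fell from 51.0 ± 2.23 to 33.0 ± 1.85 FPKM (-0.63, adjusted p = 0.00122), CAV1, the caveolar coat protein, by 1.38 (adjusted p = 0.00355) and XPO4, an exportin, by 0.32 (adjusted p = 0.0141). DAB2, an endocytic adaptor, rose by 0.86 (adjusted p = 0.00174).

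**Figure D5:**
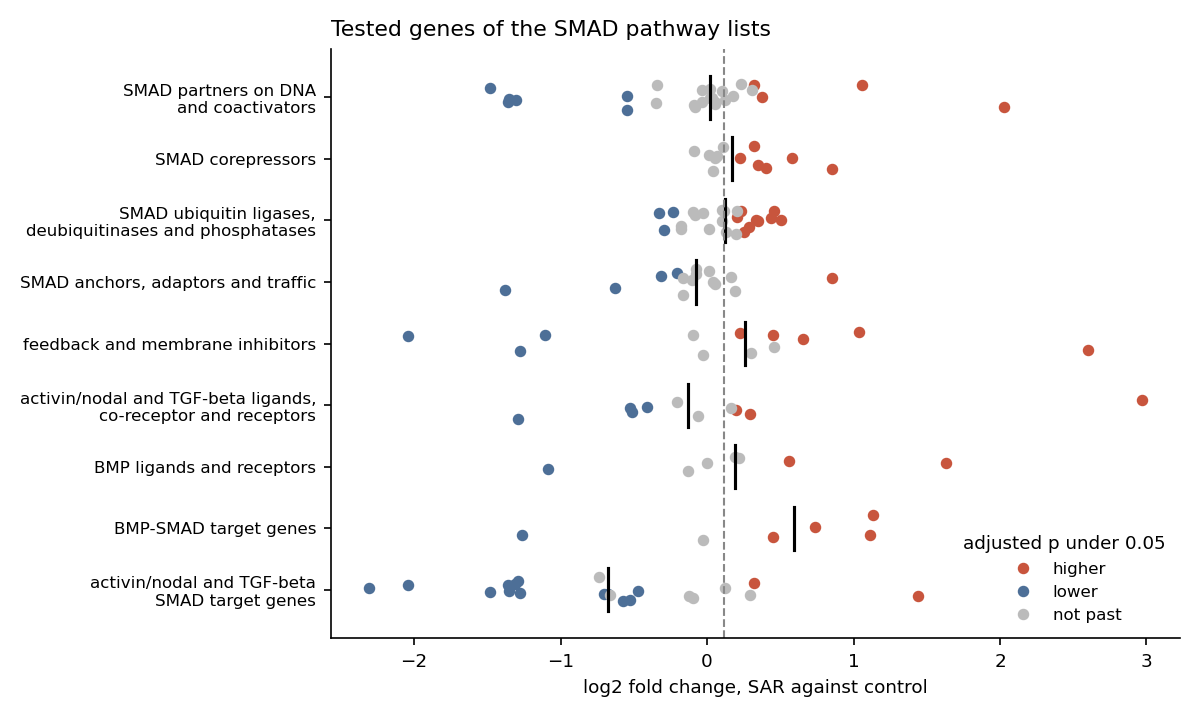
Log2 fold change, SAR against control, of each tested gene in 9 lists of SMAD regulators, partners and targets, 1 point per gene, coloured by the test result, with a short bar at the median of each list and the median of all tested genes (0.12) as a dashed line. Most activin/nodal and TGF-beta target genes lie left of 0 (13 of 21 lower), and 4 of 6 BMP target genes lie right of it and passed the test.

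The genes with the pattern most like SMAD7 over the 6 libraries, among 7069 genes that averaged 5 FPKM or more, were YES1, a Src family kinase (Pearson r = 0.9993), ACTN1, an actin crosslinker (0.9980), and PTPN11, the phosphatase SHP2 (0.9952). For PMEPA1, among 7068 genes, MNAT1 (0.9951) and NANOG (0.9942) were among the 3 most alike. These 6 points fall into 2 groups and share their libraries, so the values are a description of likeness with no test.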

How the data were processed

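RNA of H1 cells at day 3 of DE differentiation was measured in 6 libraries, 3 control and 3 SAR, grouped by the sample labels. The deposited values are FPKM per gene, which the authors made from paired-end reads. The submitters' processing notes name HISAT2, featureCounts, Subread, DESeq2 and GRCh38.p13. Versions, the annotation release and the strand setting are not given in the sources used here.

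FPKM are not counts, so log2(FPKM + 0.1) of genes averaging 0.5 FPKM or more was tested with limma 3.58.1 (R 4.3.3, moderated variances with an intensity trend, two-sided, Benjamini-Hochberg over all 16371 genes). Tables and plots used Python 3.11.15. Reads were recovered from the FPKM steps as whole numbers (tolerance 0.01) for 40394 of 40396 genes and used for depth and for a voom fit, which was chosen after seeing the data. Positions and exon overlaps came from GENCODE 29, and promoters from RefSeq. For some of the 10 genes the length behind the FPKM differed from GENCODE 29, as in SMAD1 (7094 against 6058 bases), so overlaps are approximate. A symbol was found for 40304 gene IDs. The named genes were the 10 genes, the 4 genes with the smallest adjusted p in each list, the 3 genes most correlated with SMAD7 and with PMEPA1, and markers of the cell type check. Of the genes this rule gives, 2 are not reported here. The members and lists were chosen with earlier results of these data known. The fit was tested on simulated data. Protein sequences were not used here. Alternatives were other pseudocounts, filters, scalings, a fit without the trend, a replicate block, leaving out each library, and voom.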

Additional observations from a re-analysis of the deposited data

How the results depend on the processing

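Over 15 alternatives, SMAD1, SMAD2, SMAD6, SMAD7 and PMEPA1 kept their direction and their call, with log2 fold changes of 0.34 to 0.56, -0.73 to -0.53, -2.21 to -1.54, -0.92 to -0.67 and -1.53 to -1.22. SKIL ranged from -0.42 to -0.26 and lost its call without control replicate 3 (adjusted p = 0.0508), so that 4 to 5 of the 10 genes were lower when single libraries were left out. The small differences of genes not past the test changed sign, in SMAD5 to -0.094 (median-ratio rescaling) and -0.0049 (quantile normalization), with -0.017 to 0.052 when single libraries were left out, in SMAD9 to -0.10 and -0.19, with -0.055 to 0.086 when single libraries were left out, and in SMAD4 to -0.015 (median-ratio rescaling). Of the listed pathway genes, 35 were higher, but 22 with no filter on low values, 20 under the median-ratio rescaling, 22 under quantile normalization, and 18 to 29 when single libraries were left out. The lower count of 28 became 17 to 28 in the latter. With no filter, the number of genes tested rose to 40396. Otherwise the cause was not tested. Over all genes, 3885 were higher and 1563 lower, against 2259 and 2538 under the median-ratio rescaling, 2429 and 2289 under quantile normalization, and 2129 and 833 without control replicate 3. Same-numbered libraries did not deviate together (correlations 0.07, 0.00 and 0.02), so no pairing by number was visible. These correlations cannot show whether same-numbered libraries were handled together. With the replicate number as a block, 1 of the 10 genes was higher and 5 lower, 2 of them past a 2-fold change downwards and 0 upwards, 29 pathway genes were higher and 25 lower, and over all genes 3400 were higher and 1448 lower. Depth limits SMAD9 most, which rested on 111 to 173 reads per library. The protein part of the planned sequence description was not run.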
